A study of Mus musculus with 6 samples.

Results

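The enzymes described here detoxify foreign compounds and remove peroxides: 42 genes for glutathione transferases, phase I enzymes of xenobiotic metabolism, the Nrf2 pathway with glutathione synthesis, and peroxide and superoxide removal. All probe sets annotated with 1 of these symbols were taken, bright or dim, which gave 75 probe sets for 40 genes out of 45037 probe sets in all. The signal of Por, the reductase that feeds electrons to cytochromes P450, was not analysed here. Prdx1, a peroxiredoxin, had only 5 probe sets that the annotation shares with another gene, so none was counted under its name.

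Islets were isolated from male OF1 mice aged 10 weeks, in 2 groups of 3 samples with 1 Affymetrix array each. Mice of 1 group were given bisphenol A (BPA), a compound with weak oestrogen-like activity. Mice of the other group were given tocopherol-stripped corn oil alone (control). For the BPA group, the series design gives 100 µg/kg per day under the skin, as 50 µg/kg injections, during 4 days, with islets taken 16 hours after the final one. The treatment protocol of the samples gives 2 days instead, and a further label of this group names 1 nM and 48 hours, so the labels do not settle the exposure. The title of the series asks about short BPA treatment in the living animal. Titles number the samples as biological replicates, each resting on 3 separate experiments according to the series design, with no count of mice, so p-values measure the spread between these samples, part of which may be technical.

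Glutathione transferases join the tripeptide glutathione to reactive compounds, so that they can be exported. Glutathione peroxidases, peroxiredoxins and catalase remove peroxides, and superoxide dismutases make peroxide from superoxide. Many of these genes are induced by the transcription factor Nrf2 (gene Nfe2l2), which Keap1 holds back until oxidants or electrophiles modify it. Beta cells are known for low levels of catalase and of some glutathione peroxidases. Nrf2 acts with small Maf proteins at antioxidant response elements, and the aryl hydrocarbon receptor, which induces Cyp1a1 and Cyp1b1, acts at elements with the core GCGTG.

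Signals lay on a log2 scale, with medians of 6.55 to 6.65 per array. All 9 of the 10 listed endocrine markers that had a probe set, such as insulin and glucagon, were bright (mean 11.18 to 15.29). The RNA also held exocrine transcripts: all 13 acinar markers with a probe set lay above the median, and their mean deviation from the average of the 6 arrays was 1.03, -0.06 and -0.55 in BPA replicates 1 to 3, against 0.32, 0.69 and -1.43 in control replicates 1 to 3. In such bulk RNA, fewer cells of a type and less RNA per cell cannot be told apart. BPA replicate 1 also had the highest mean deviation for 9 stellate cell and fibroblast markers (0.68) and for 7 macrophage and immune markers (0.70). Control replicate 3 had the lowest of both means (-0.61 and -0.43). Acta2, Col1a1, Pdgfrb and C1qb were not highest in BPA replicate 1, and Pdgfrb was lowest there. Acta2, Col1a1, Pdgfrb, C1qa, C1qb and Ptprc were not lowest in control replicate 3. Fn1 read 11.14 in BPA replicate 1, against 7.19 to 8.46 on the other arrays. The 3′ minus 5′ signal of 5 control transcripts, a measure of RNA quality and labelling, was 2.44 to 2.61 on BPA arrays, against 2.80 to 3.09 on control arrays, so the groups did not overlap in it. The mean of 4 glia and nerve markers separated the groups too, at 0.39, 0.15 and 0.15 on BPA arrays, against -0.24, 0.03 and -0.48 on control arrays. Of these markers only Th separated the groups by itself (difference 0.74), while Prph (0.74), S100b (0.30) and Sox10 (0.07) overlapped. The part of the 3′ minus 5′ balance or of this mean in the differences below was not tested, apart from a fit adjusted for that balance.

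Gstm5, a glutathione transferase of the mu class, was the member with the smallest p in the comparison of BPA with control. In RefSeq's gene table (GRCm38.p6) the mu class genes follow each other on chromosome 3 with no other protein-coding gene between them, in the order Gstm5, Gstm7, Gstm6, Gstm3, Gstm2, Gstm1, Gstm4. Promoter windows in RefSeq, of 250 bases before and 50 bases after a start, were found for 37 of the 42 genes, Por and Prdx1 among them. The antioxidant response element core TGACNNNGC was searched on both strands. It stood in 10 of 49 member windows (20.4%), against 12.4% of 32851 windows of all genes. Among the mu class it stood in the window of Gstm5 and in 1 of the windows of Gstm7, and in none of Gstm1, Gstm2, Gstm3, Gstm4 and Gstm6. The sequences before the starts of Gstm5 (plus strand, chr3:107895604-107895853) and Gstm2 (minus strand, chr3:107986421-107986670) are shown because these are the mu class genes with an unadjusted p under 0.05, with and without this core. They run 5′ to 3′ on the gene's strand, and capitals mark the core.

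Gstm5: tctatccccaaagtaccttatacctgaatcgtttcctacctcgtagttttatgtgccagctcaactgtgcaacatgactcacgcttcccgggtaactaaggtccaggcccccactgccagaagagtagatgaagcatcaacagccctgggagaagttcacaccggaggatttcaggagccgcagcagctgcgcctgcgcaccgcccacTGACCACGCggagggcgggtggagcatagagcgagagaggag

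Gstm2: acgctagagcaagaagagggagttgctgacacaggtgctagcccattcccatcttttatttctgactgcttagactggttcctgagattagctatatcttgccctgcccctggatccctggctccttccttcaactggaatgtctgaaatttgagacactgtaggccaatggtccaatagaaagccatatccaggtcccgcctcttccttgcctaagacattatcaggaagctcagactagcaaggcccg

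The core of Gstm5 lies at positions -42 to -34 from the start. Its last bases are also a match to GCGTG on the other strand, and a further GCGTG match lies at -171 to -167. The window of Gstm2 held neither motif, while GCGTG stood in 44.9% of member windows and in 32.4% of all windows. A match describes letters and not a bound site.

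By level, 35 of the 40 genes were expressed, meaning that the brightest probe set had a mean above the median of all probe sets (6.60). The same rule classed 11787 of the 18193 genes of the whole series as expressed. Of the 35, 13 lay above the 90th percentile (10.30), a share that was not computed for all genes. The other 5 of the 40 genes, Gstm6, Gsta3, Cyp1a1, Cyp2e1 and Hmox1, were low. As a gauge of that limit, genes of photoreceptors and sperm, which islets do not make, had means of 3.64 to 7.36, and 1 of 11 lay above the median. Gstm7, Nqo1, Gsta4, Cyp1b1 and Gstt2 lay between the median and the brightest of these genes, so the signal alone does not show them to be expressed. Signals of different probe sets depend on their probes and do not rank amounts of RNA.

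**Figure D1:**
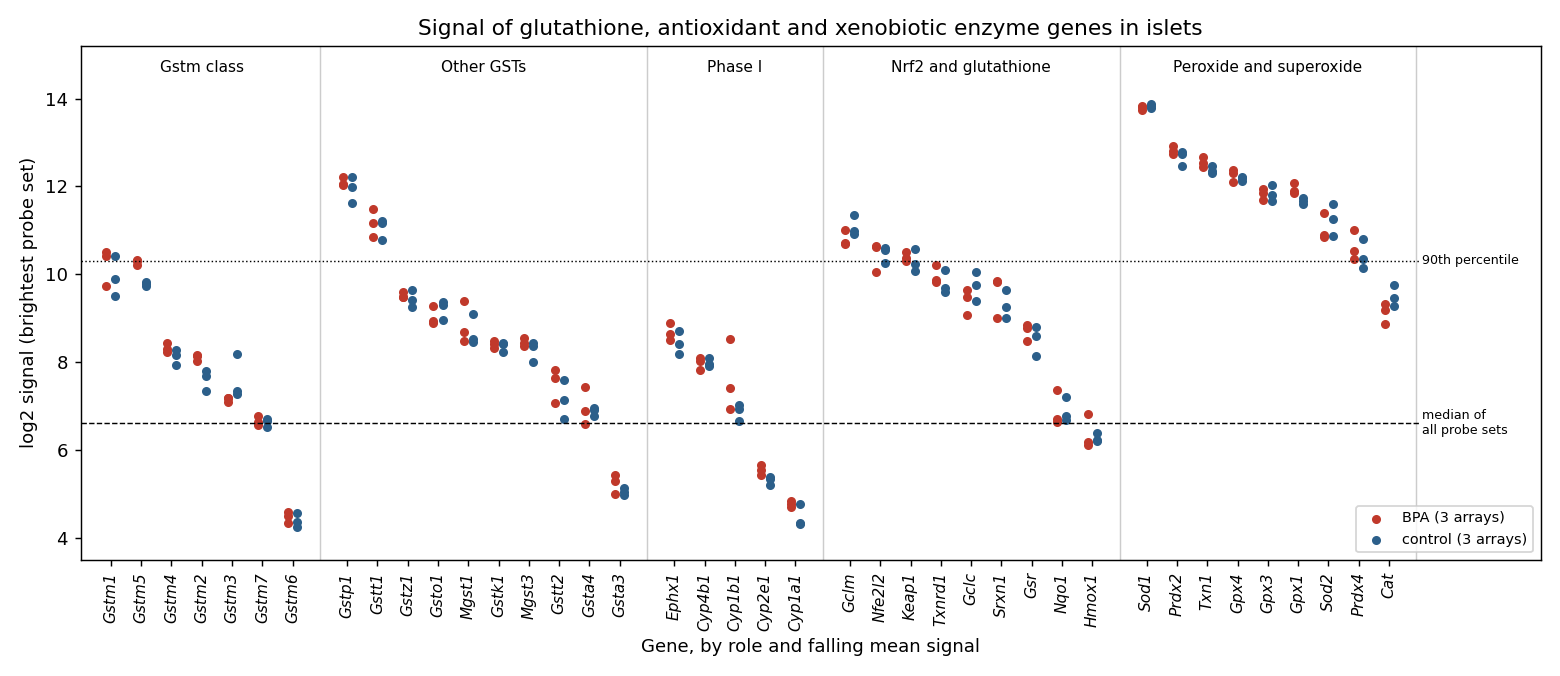
log2 signal of the brightest probe set of each of the 40 genes on each array (points), BPA left and control right, by role, with dashed and dotted lines at the median and 90th percentile of all probe sets. Peroxide and superoxide genes sit at the top, with Sod1 near 13.8, and Gstm6, Gsta3, Cyp2e1, Cyp1a1 and Hmox1 lie below the median.

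None of the 55 member probe sets above the filter (mean over 6.60) passed limma's test of BPA against control at an adjusted p under 0.05, where the share over all 22518 tested probe sets was also 0%. At an unadjusted p under 0.05 there were 5 of 55 (9.09%), against 6.47% of all probe sets. Of the 55, 5 (9.09%) were higher with BPA and 0 lower at that p, against 3.84% of all probe sets higher and 2.64% lower. These 5 belonged to Gstm5, Gstm2, Gpx4, Gpx1 and Srxn1. The 2 groups did not overlap for 6 of 55 (10.9%), against 12.2% of all probe sets, a share near the background. Without overlap, 5 of the 55 (9.09%) were higher with BPA, against 7.83% of all probe sets, and 1 of the 55 was lower, against 4.35%. With 1 probe set per gene, 25 of 35 genes had a higher mean with BPA (71.4%), against 57.7% of 11787 genes, and the median difference was 0.12 (log2) against 0.03 for all genes. The 95% interval reached 0.41 to either side in the median probe set, so differences smaller than this could not be told from 0 for a typical member.

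The mu class held both of the smallest p-values of the brightest probe sets. Gstm5 had log2 signals of 10.31, 10.30 and 10.20 with BPA, against 9.74, 9.83 and 9.79 in controls. Every BPA array lay above every control array, and the gap between the groups was wider than the range within either. The means were 10.27 ± 0.06 and 9.79 ± 0.05 (SD, n = 3 each). The difference was 0.49 ± 0.10 (SE, 95% interval 0.25 to 0.72), or 1.40 times the control signal, and limma's adjusted p was 0.655 (unadjusted 0.00187). It was 0.46 to 0.52 with each array left out, 0.52 without both replicate 3 arrays, and 0.54 and 0.48 with the 3′ minus 5′ balance or the acinar list as covariate. The 3′ minus 5′ balance and the mean of the glia and nerve markers given above separated the same arrays. The part of the glia and nerve signal in the Gstm5 difference was not tested. The fit with the balance as covariate removes much of the contrast between the groups. In it, limma gave an unadjusted p under 0.05 for 1.67% of all probe sets.

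Gstm2, another mu class transferase, had 8.03, 8.14 and 8.15 with BPA, against 7.80, 7.68 and 7.35 in controls. The groups did not overlap, and control replicate 3 was the lowest array. The difference was 0.50 ± 0.15 (SE, 95% interval 0.16 to 0.85; limma's adjusted p = 0.674). It was 0.37 without control replicate 3, and 0.35 without both replicate 3 arrays.

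Gstm1, a major mu class transferase of mouse liver, did not separate the groups. Its brightest probe set read 10.51, 10.41 and 9.73 with BPA, against 10.41, 9.90 and 9.51 in controls. Replicate 3 was lowest in both groups, where the acinar markers were lowest too. The difference was 0.28 ± 0.29 (SE), and 0.18 with the acinar list as a covariate. It was 0.06 without control replicate 3 and 0.52 without BPA replicate 3. The other 3 probe sets of Gstm1 differed by 0.30, 0.14 and -0.04. The brightest and 1 other of these carry the suffix _x_at, with which Affymetrix marks probes that may bind related sequences.

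Gstm3 went the other way on its brightest probe set, at 7.09, 7.17 and 7.19 with BPA, against 7.28, 7.35 and 8.19 in controls. The groups did not overlap, but control replicate 3 stood far above the other arrays. The difference was -0.45 ± 0.25 (SE, adjusted p = 0.823), and -0.16 without control replicate 3. This probe set has the suffix _s_at, used where probes match several transcripts, and the dim probe set of Gstm3 differed by 0.05.

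Gstm4 read 8.30, 8.43 and 8.23 with BPA, against 7.94, 8.27 and 8.17 in controls, and the groups overlapped. The difference was 0.19 ± 0.13 (SE, 95% interval -0.12 to 0.51). It was 0.10 without control replicate 1, and 0.50 in the fit adjusted for the 3′ minus 5′ balance. Gstm7 read 6.62, 6.76 and 6.56 with BPA, against 6.65, 6.70 and 6.51 in controls, close to the median of all probe sets. It differed by 0.03 ± 0.11 (SE, 95% interval -0.24 to 0.29). Gstm6 was low on every array, at 4.34, 4.57 and 4.49 with BPA, against 4.23, 4.35 and 4.55 in controls, and was not tested.

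**Figure D2:**
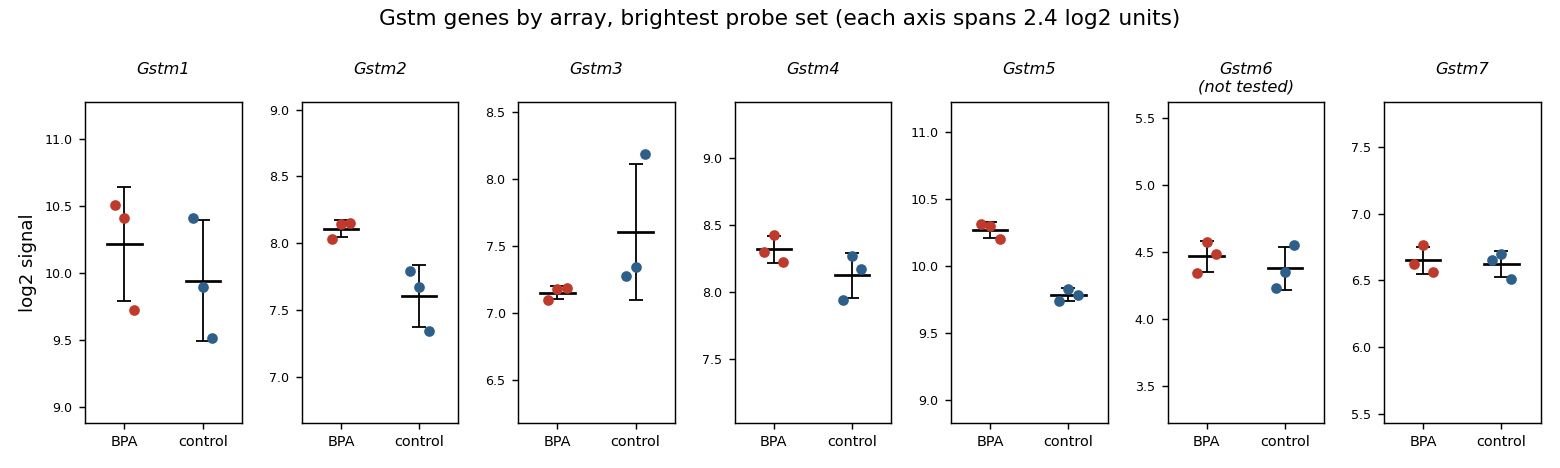
log2 signal of the brightest probe set of the 7 Gstm genes per array (points), BPA left and control right, with group means (lines) and SD (bars, n = 3). Gstm5 and Gstm2 have every BPA array above every control array, Gstm3 has every BPA array below with 1 control array far above the rest, and the others overlap.

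Gstm5 was also set against its relatives, as its signal minus the mean of the 5 other tested Gstm genes on the same array. That difference was 2.20, 2.11 and 2.23 with BPA, against 1.72, 1.85 and 1.84 in controls. It was larger on every BPA array, by 0.38 on average. The exact permutation p was 0.1 (two-sided, n = 3 each), the smallest that 3 against 3 arrays allow, so it could not pass 0.05. Gstm5 was singled out for its own difference, so these values describe it and do not show that it differed from its relatives. With only the Gstm genes above the 75th percentile, where Gstm1 was the sole other gene, it was 0.21 and the exact permutation p was 0.6.

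The other glutathione transferases gave 0 of 10 tested probe sets at an unadjusted p under 0.05, against 6.47% of all probe sets. The mean was higher with BPA for 8 of 9 genes, against 57.7% of all genes. Gstp1, the pi class enzyme, was the brightest of them, at 12.22, 12.04 and 12.03 with BPA, against 12.22, 11.99 and 11.62 in controls. The groups overlapped, and control replicate 3 was lowest. The difference was 0.16 ± 0.16 (SE), and -0.003 without control replicate 3. Gstt1, of the theta class, had 11.49, 11.18 and 10.84 with BPA, against 11.21, 11.16 and 10.78 in controls. Again replicate 3 was lowest in each group, and the difference was 0.12 ± 0.20 (SE). It turned to -0.04 without BPA replicate 1 and to -0.01 without control replicate 3. Gsta4, Gstt2, Gstk1, Gsto1, Gstz1 and the microsomal Mgst1 and Mgst3 differed by -0.18 (Gsto1) to 0.37 (Gstt2) with overlapping groups. The 2 probe sets of Gsto1 differed in opposite directions, at -0.18 (suffix _x_at) and 0.13. Gsta3, of the alpha class, was low at 5.24 ± 0.23 with BPA and 5.05 ± 0.08 in controls (SD, n = 3 each).

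Of the phase I enzymes, which make a compound reactive before it is conjugated, the P450 genes Cyp1a1 and Cyp2e1 were dim. Cyp1a1, the classic target of the aryl hydrocarbon receptor, read 4.76, 4.83 and 4.70 with BPA, against 4.76, 4.35 and 4.32 in controls, in the range of the photoreceptor and sperm genes. Cyp2e1, an ethanol-metabolising P450, was also low, at 5.42, 5.65 and 5.54 with BPA, against 5.39, 5.33 and 5.21 in controls. Neither was tested. Ephx1, the microsomal epoxide hydrolase, read 8.88, 8.51 and 8.65 with BPA, against 8.71, 8.41 and 8.18 in controls, a difference of 0.25 ± 0.17 (SE) with overlapping groups. Cyp4b1, a P450 best known from lung, read 8.08, 8.03 and 7.81 with BPA, against 8.10, 7.95 and 7.90 in controls, and differed by -0.01 ± 0.13 (SE).

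Cyp1b1, described here after its values were seen, had the largest difference of any member gene. It read 8.52, 6.93 and 7.41 with BPA, against 6.66, 7.02 and 6.92 in controls. BPA replicate 1 stood above all other arrays, and the groups overlapped. The difference was 0.75 ± 0.38 (SE, 95% interval -0.16 to 1.66; limma's adjusted p = 0.798), and 0.30 without BPA replicate 1. The 2 dim probe sets of Cyp1b1 differed by -0.05 and 0.29. The same array was highest for the mean of the stellate cell and fibroblast markers and of the immune markers. The part of such cells in the Cyp1b1 signal was not tested.

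In the Nrf2 group 8 of 9 genes were expressed and 1 of 13 tested probe sets (7.69%) had an unadjusted p under 0.05, close to the 6.47% of all probe sets. It was the second brightest of the 3 tested for Srxn1. Nfe2l2 itself read 10.63, 10.63 and 10.06 with BPA, against 10.60, 10.54 and 10.26 in controls. Replicate 3 was lowest in both groups, and the difference was -0.03 ± 0.19 (SE, 95% interval -0.48 to 0.42), turning to 0.16 without BPA replicate 3. Keap1 differed by 0.10 ± 0.15 (SE) on its brightest probe set, and by -0.01 without control replicate 2.

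Gclm, the modifier subunit of the enzyme that limits glutathione synthesis, read 11.00, 10.72 and 10.69 with BPA, against 11.35, 10.98 and 10.92 in controls. BPA means were lower, but BPA replicate 1 overlapped the controls, and the difference was -0.28 ± 0.15 (SE, adjusted p = 0.824), and -0.15 without control replicate 1. The other probe set of Gclm differed by -0.05 ± 0.26 (SE), and by 0.24 without BPA replicate 3. Gclc, the catalytic subunit, differed by -0.33 ± 0.22 (SE) on its brightest probe set (-0.17 without control replicate 1 or without BPA replicate 3) and by 0.12 ± 0.16 (SE) on the other. Srxn1, which repairs overoxidised peroxiredoxins, had 7.73, 7.68 and 7.59 with BPA, against 7.49, 7.41 and 7.24 in controls on its second brightest probe set. The groups did not overlap there, with a difference of 0.29 ± 0.12 (SE, adjusted p = 0.759), while its brightest probe set overlapped and differed by 0.25 ± 0.27 (SE).

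Nqo1, Hmox1, Txnrd1 and Gsr, other targets of Nrf2, had overlapping groups. The quinone reductase gene Nqo1 read 6.71, 6.63 and 7.37 with BPA, against 6.77, 6.69 and 7.20 in controls, so that replicate 3 was highest in both. Its difference was 0.02 ± 0.24 (SE). Hmox1, haem oxygenase, was low and read 6.82, 6.18 and 6.12 with BPA, against 6.21, 6.39 and 6.21 in controls, so that only BPA replicate 1 stood above the controls. The thioredoxin reductase gene Txnrd1 and the glutathione reductase gene Gsr differed by 0.18 ± 0.18 and 0.20 ± 0.20 (SE).

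Peroxide and superoxide enzymes were the brightest group, with 8 of 9 genes above the 90th percentile and catalase the exception. Gpx1, the cytosolic glutathione peroxidase, read 12.07, 11.84 and 11.90 with BPA, against 11.67, 11.73 and 11.59 in controls. The groups did not overlap, and the difference was 0.27 ± 0.10 (SE, 95% interval 0.03 to 0.51), or 1.21 times the control signal. By limma the adjusted p was 0.736 (unadjusted 0.0309). It was 0.20 to 0.32 with each array left out.

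Gpx4, which reduces lipid peroxides in membranes, gave different answers from its probe sets. The dimmer one read 10.87, 10.51 and 10.62 with BPA, against 9.90, 10.32 and 10.22 in controls, without overlap and with a difference of 0.52 ± 0.16 (SE, adjusted p = 0.674). The brighter one overlapped, at 12.38, 12.11 and 12.30 with BPA, against 12.18, 12.22 and 12.13 in controls, and differed by 0.08 ± 0.10 (SE). The brighter one carries the suffix _x_at, explained above for Gstm1. Which of them reflects the gene was not tested.

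Sod1, the copper and zinc superoxide dismutase, was the brightest member, at 13.84, 13.75 and 13.82 with BPA, against 13.83, 13.89 and 13.78 in controls. On this probe set the difference was -0.03 ± 0.07 (SE, 95% interval -0.19 to 0.13). The other tested probe sets of Sod1 differed by 0.05 ± 0.11, 0.04 ± 0.12 and -0.36 ± 0.25 (SE), with overlapping groups. Prdx2, a cytosolic peroxiredoxin, read 12.92, 12.80 and 12.75 with BPA, against 12.75, 12.79 and 12.47 in controls, and differed by 0.15 ± 0.11 (SE). Cat, catalase, read 9.19, 8.86 and 9.33 with BPA, against 9.47, 9.27 and 9.75 in controls. The groups overlapped, the difference was -0.37 ± 0.18 (SE, adjusted p = 0.796 by limma; -0.24 without BPA replicate 2 and -0.25 without control replicate 3), and the second probe set of Cat differed by -0.27 ± 0.16 (SE). The mitochondrial Sod2, secreted Gpx3, Prdx4 of the endoplasmic reticulum and thioredoxin (Txn1) differed by -0.20 to 0.19 on their brightest probe sets. For Sod2 this was -0.20, and its other tested probe sets differed by 0.08 and -0.06. For Prdx4 it was 0.19, and its other tested probe sets differed by -0.12 and -0.07.

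**Figure D3:**
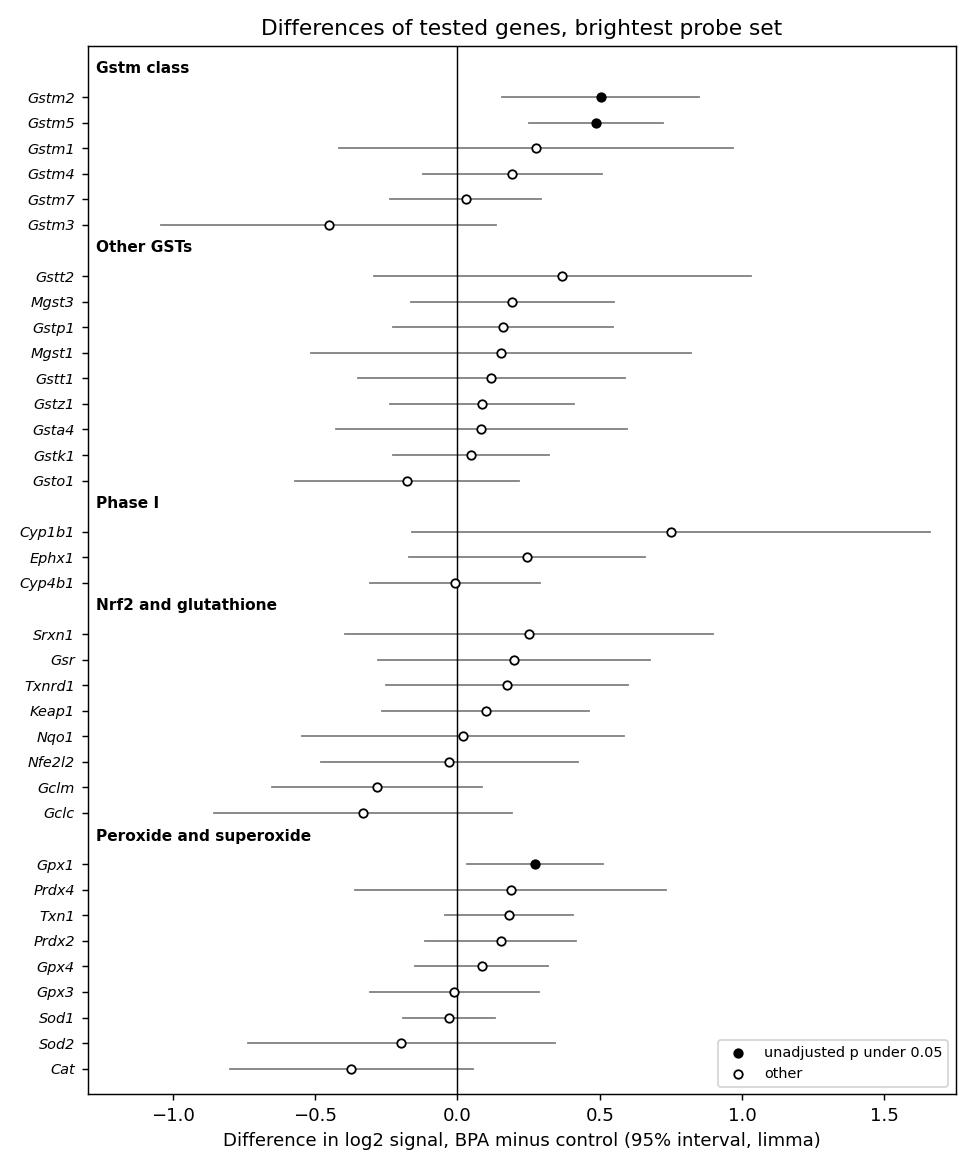
Difference in log2 signal, BPA minus control, with its 95% interval from limma, for the brightest probe set of the 35 tested genes by role. Filled points, at an unadjusted p under 0.05, are Gstm2, Gstm5 and Gpx1, and all other intervals include 0.

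Probe sets of the same gene often differed. Of 13 genes with more than 1 tested probe set, 7 had the same direction on all of them and 6 did not. Across arrays, 14 of the 35 tested genes were highest in BPA replicate 1, against 22.5% of all genes, and 11 were lowest in control replicate 3, against 21.7% of all genes. The mean deviation of the expressed members was 0.20, -0.01 and -0.04 in the BPA replicates, against 0.01, -0.06 and -0.09 in the control replicates. The median difference of 0.12 was 0.10 without BPA replicate 1 and 0.06 without control replicate 3, and 22 of 35 genes were higher with BPA in either case. With the acinar list as a covariate it was 0.10, with 25 of 35 genes higher. Shares of all genes higher with BPA were not computed for these fits, so their counts have no background beside them. The part of stellate and immune signal was not tested.

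**Figure D4:**
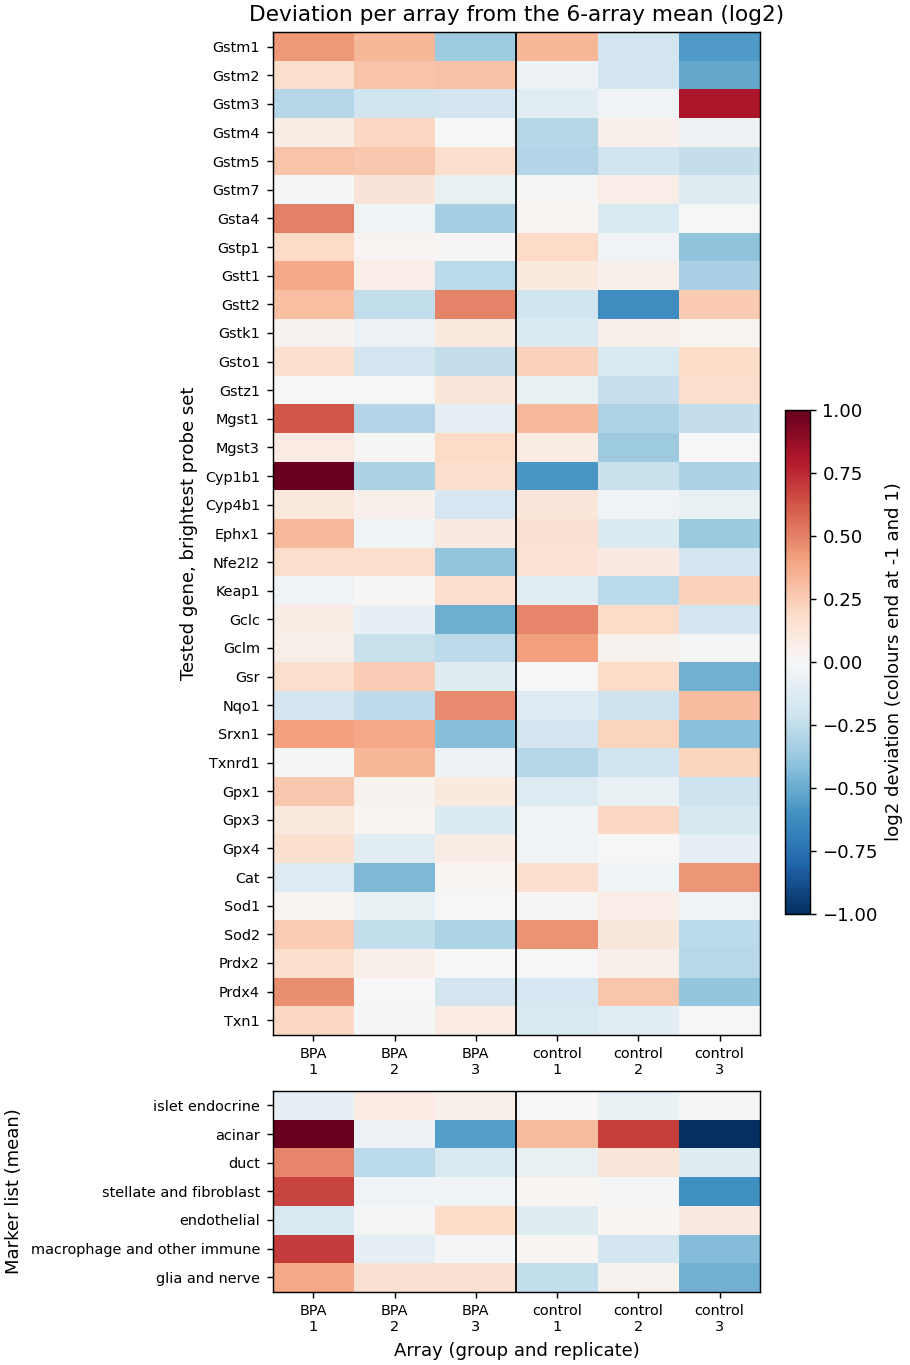
Deviation of each array from the mean of the 6 arrays (log2, colour, ending at -1 and 1) for the 35 tested genes (upper panel) and the mean of each marker list (lower panel), BPA arrays left of the line. BPA replicate 1 is high for Cyp1b1, Mgst1, Gsta4 and the acinar, stellate and immune lists, while Gstm5 is even within each group.

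Among 73 other genes of these pathways, 64 had a probe set of their own and 48 lay above the filter. None passed the test in either direction. Of the 48, 26 were higher and 22 lower, against 57.7% of all genes higher, with a median difference of 0.02 (log2). Glrx, a glutaredoxin that removes glutathione from proteins, was the only one of the 48 with an unadjusted p under 0.05, against 6.47% of all probe sets. It read 10.93, 10.90 and 10.48 with BPA, against 10.03, 10.29 and 10.42 in controls, without overlap. The difference was 0.52 ± 0.17 (SE, limma's adjusted p = 0.690).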

How the data were processed

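Per the labels' protocols, 1 µg of total RNA from each of 6 islet samples was labelled with biotin. The authors deposited 1 log2 signal per probe set and array. Per the submitters' processing notes the tool was MAS5, of no stated version. The summary and scaling methods beyond that are not given in the sources used here, and values were used as deposited. The lowest signals (2.95 to 3.04) and the highest (15.24 to 15.32) were nearly the same on every array. Whether the values are plain MAS5 signals was not tested. Groups came from sample titles. After leaving 64 controls out of 45101 probe sets, 22518 of the other 45037 lay above the median mean. Symbols came from the platform annotation. BPA was compared with control in limma 3.58.1 (R 4.3.3, lmFit, eBayes with trend, two-sided, Benjamini-Hochberg over all 22518). The fit was also checked on simulated data, where the added differences were larger than that of any member here. That check therefore does not cover differences of the size reported. No detection calls were used. The number of arrays limits the precision. Figures were drawn with matplotlib 3.10.9.

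Members, lists and tests were chosen with earlier results of these data known, so no p adjusts over the members alone. Values per array are given for all Gstm genes, for genes with an unadjusted p under 0.05 or no overlap on the brightest probe set, and for the brightest 2 of each role. Others given per array (Cyp1a1, Cyp1b1, Cyp2e1, Nqo1, Hmox1, Cat, and second probe sets of Gpx4 and Srxn1) were picked after their values were seen. Alternatives were 3 scalings, no filter or the 75th percentile, eBayes without trend or robust, a replicate block, each array or both replicate 3 arrays left out, averaging all probe sets of a gene, and 2 covariates.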

Additional observations from a re-analysis of the deposited data

How the results depend on the processing

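The count of 0 called probe sets, over the whole table and over the members, held in 17 of 17 alternatives, with the smallest adjusted p of the whole table between 0.189 and 1.00. Member probe sets at an unadjusted p under 0.05 numbered 5, and 3 to 7 with each array left out, where shares over all probe sets were 4.15% to 14.0%: 3 of 55 without control replicate 3 (6.17% of all) and 7 of 55 without BPA replicate 3 (14.0% of all). They numbered 3 of 35 above the 75th percentile (7.01% of all), 11 of 55 with the replicate block, where the share over all probe sets was 13.5%, and 1 of 55 with a covariate for the 3′ minus 5′ balance (1.67% of all). Without a filter there were 6 of 75 (5.87% of all), the sixth being the dim probe set of Keap1 (difference 0.46). Replicate numbers were not used as pairs in the main fit. Deviations of same-numbered arrays correlated at 0.48, 0.08 and 0.71. The best matching control was replicate 1 for BPA replicates 1 and 2, and replicate 3 for BPA replicate 3. Gstm5 kept its direction in 18 of 18 alternatives (0.46 to 0.54, adjusted p 0.211 to 1.00, the lowest with the replicate block). Many of these could not have reversed it. The filters, eBayes settings, replicate block and averaging of its 1 probe set leave its difference unchanged. Leaving arrays out cannot reverse groups without overlap, so the count of 18 does not measure robustness. The median difference of member genes was 0.06 to 0.19 with each array left out and turned to -0.055 with the balance as covariate, and Gstm1 turned to -0.17 there. The balance separates the groups, so that fit removes much of the contrast. Gstm7 turned to -0.0070 under cyclic loess and to -0.025 without control replicate 3. It fell below the filter at the 75th percentile and without BPA replicate 2, where the plain difference of means was -0.028, so that it lay between -0.028 and 0.073 with each array left out. Expressed members numbered 34 or 35, and 23 with the 75th percentile as the limit. The cause of these changes was not tested.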
